A study of Mus musculus with 2 samples.

Results

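Among 7863 single cells of mouse fetal liver, 539 were S4-like erythroblasts, that is late red cell precursors with much Ter119 and an intermediate amount of CD71 on their surface. They made up 6.85% of the cells (95% Clopper-Pearson interval 6.31 to 7.44%) and 30.3% of the 1781 lineage-low cells with high Ter119. Livers of C57BL/6 mouse embryos at e13.5 were pooled into 1 suspension, stained with 10 DNA-barcoded antibodies and loaded on the 10x platform, which yielded 1 library of cDNA and 1 library of antibody tags from the same cells. Each of the 7863 cell barcodes was present in both libraries. The Ter119+ cells had first been removed with magnetic beads and an equal number was then returned, so shares of cells do not describe the composition of a fetal liver. With 1 library of each kind and pooled embryos there is no replicate, no test was possible, and the intervals below cover counting error only.

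The S4-like cells were selected on antibody counts and on a few values from the cDNA. Each held 300 to 5000 detected genes, at most 9% mitochondrial UMIs (unique molecular identifiers, the counted transcript tags) and no more Hbb-y than Hbb-bs plus Hbb-bt UMIs, and the summed count of 5 lineage antibodies (CD11b, CD41, Ly6G/6C, CD45R and CD3e) was at most 95. The Ter119 count was at least 89 and the CD71 count lay between 200 and 733, which in the chosen cells gave a median CD71 count of 420 and a median Ter119 count of 153. A further 19 cells met the antibody limits but carried more Hbb-y, an embryonic beta-globin of primitive red cells, than adult beta-globin, and were left out. Neighbouring populations passed the same filters. S3 cells (876) had the same Ter119 limit with CD71 above the upper limit, S5-like cells (310) had CD71 below the lower limit, and S2-like cells (1327) had a Ter119 count from 25 up to the limit with high CD71. As a reference outside the lineage, 283 cells had Ter119 below 25 and more than 2% of their UMIs from hepatocyte, myeloid or megakaryocyte genes.

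The antibody tags that define and describe these cells are short barcodes, read from the antibody library in place of a protein. Those for Ter119 and CD71 set the limits, and those for CD44 and cKit, which the selection did not use, are described below:
Ter119: GAGGCGATTGAT
CD71: CGAAGAAGGAGT
CD44: GTCTAGACTTCG
cKit: AAGCGCTTGGCA

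Ter119 is a surface antigen of the red cell lineage that appears as erythroblasts begin to fill with hemoglobin, and CD71 is the transferrin receptor through which they take up iron. In the final steps an erythroblast makes its last divisions, loses CD71, condenses and expels its nucleus, and clears mitochondria and ribosomes, while globin, heme and membrane skeleton proteins come to dominate the cell. The loss of CD71 at high Ter119 is therefore used to order the late stages.

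**Figure D1:**
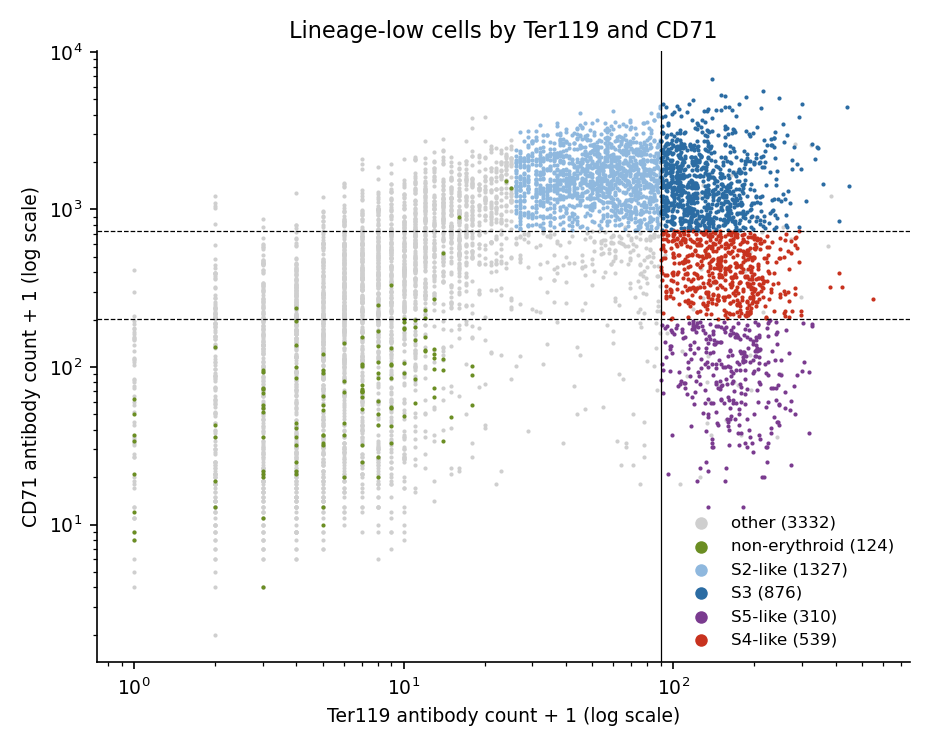
Each point is one of the lineage-low cells, plotted by Ter119 antibody count + 1 (x axis, log scale) and CD71 antibody count + 1 (y axis, log scale), with the number of cells per population in the legend. The solid line is the Ter119 limit and the dashed lines are the CD71 limits, and the 539 S4-like cells (red) lie between the S3 cells above and the S5-like cells below without a gap on either side.

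The CD71 count ran without a gap across both limits. The 30 cells just inside the lower CD71 limit (counts 201 to 223) had 64.3% globin UMIs and the 30 just outside it (178 to 199) had 69.1%. At the upper limit the 30 cells inside (697 to 732) had 58.3% and the 30 outside (734 to 771) had 46.1%. At the Ter119 limit the 30 cells inside (89 to 95) had 47.5% and the 30 outside (78 to 88) had 40.5%. The populations are thus ranges of antibody counts with no break between them.

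S4-like cells were small in RNA content and rich in globin. They held a median of 3949 UMIs per cell (lowest 2513, highest 23810) and 687 genes, against 4582 UMIs and 1085 genes in S3 and 3799 UMIs and 563.5 genes in S5-like cells. Once globin genes were set aside the difference was larger, with a median of 1427 non-globin UMIs per S4-like cell against 2444 in S3 and 1066.5 in S5-like cells. When every cell was thinned to 2000 UMIs, S4-like cells had a median of 433 genes, S3 cells 633 and S5-like cells 349. Thinning matched all UMIs, globin included, and so left fewer non-globin UMIs where the globin share was higher. Globin genes took 58.5% of all S4-like UMIs (58.4 to 58.5%), between 35.1% in S3 and 70.1% in S5-like cells. In S2-like cells the share was 12.9% and in the non-erythroid cells 0.839%. The lowest UMI count of a cell was 2513 in S4-like, 2513 in S3 and 2510 in S5-like cells. Over all cells within the gene and mitochondrial limits it was 2510. No cell below that depth is among them, so median depths and globin shares describe only cells above it. Mitochondrial transcripts, which were limited by the selection only at 9%, had a median share of 1.30% in S4-like cells, below the 2.38% of S3 and above the 0.858% of S5-like cells.

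Nearly all of this globin was adult. Hbb-bs and Hbb-bt, the adult beta-globins, gave 44.2% of S4-like UMIs, and Hba-a1 and Hba-a2, the alpha-globins, gave 13.9%. The balance within the adult genes differed in steps along the populations. There were 1.89 Hbb-bs UMIs for each Hbb-bt UMI in S2-like cells, 2.03 in S3, 2.28 in S4-like (2.27 to 2.29) and 2.66 in S5-like cells (2.64 to 2.67). The counts of Hba-a1 over Hba-a2 went the other way, from 1.53 in S2-like cells through 1.28 in S3 to 1.16 in S4-like and 1.13 in S5-like cells. The ratio of adult beta- to adult alpha-globin UMIs was 2.98 in S3, 3.17 in S4-like and 3.38 in S5-like cells. Each pair consists of near-identical copies, and how reads shared by both copies were assigned was not tested, so these are ratios of the deposited counts.

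Embryonic globins had low counts in most S4-like cells and high counts in a few. Hbb-y, whose upper limit was part of the selection, had 3287 UMIs in S4-like cells, of which 2220 came from 1 cell and no more than 12 from any other. Without that cell Hbb-y stood at 1.98 UMIs per S4-like cell, beside 1.78 in S3 and 2.11 in S5-like cells, each without its own highest cell, and at 1.31 in all non-erythroid cells. It was detected in 83.3% of S4-like and 65.4% of non-erythroid cells. Hbb-bh1, another embryonic beta-globin, was not used to select cells and had a median of 1 UMI per S4-like cell, but 22 cells with at least 50 UMIs held 80.04% of its 4790 UMIs. In S3 29 cells held 60.1% of the Hbb-bh1 UMIs and in S5-like cells 5 held 58.9%.

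The genes proposed as marks of these cells were checked next. They are Tmcc2, which codes for a membrane protein of the endoplasmic reticulum, Xpo7, a nuclear export receptor that is strongly expressed in late erythroblasts, and Slfn14, an endoribonuclease that cuts ribosome-bound RNA. A level is the pooled UMI count of a gene per 1000000 non-globin UMIs of the population, since globin took a different share of UMIs in each population. Tmcc2 (chr1:132356315-132391923, mm10) stood at a level of 4413 in S4-like cells, with 182 in S2-like, 1385 in S3 and 5783 in S5-like cells and 16.4 in the non-erythroid cells. Xpo7 (chr14:70662126-70770864) stood at 1154 in S4-like cells, with 30.7, 309 and 1447 in S2-like, S3 and S5-like cells and 19.0 outside the lineage. Slfn14 (chr11:83275110-83286726) stood at 375 in S4-like cells, with 18.0, 133 and 348 in the erythroid neighbours and 0.747 outside. Over S3 the 3 genes together were 3.25-fold higher in S4-like cells (3.14 to 3.37), and S5-like cells were a further 1.28-fold higher (1.22 to 1.33). Tmcc2 (1.31-fold) and Xpo7 (1.25-fold) were higher again in S5-like cells on this scale but lower per cell (0.868-fold and 0.831-fold), and for Slfn14 the interval included no difference (0.929-fold, 0.755 to 1.14). Since they were put forward with these data in view, the values are a description.

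The size of this difference depended on how cells were weighted. As UMIs per cell, with no denominator, the markers were 1.63-fold higher in S4-like than in S3 cells. As a mean over cells, which gives a small and a large cell the same weight, they were 2.12-fold higher. In the thinned cells, 67.0% of S4-like cells had at least 1 Tmcc2 UMI (62.8 to 70.9%), against 57.5% of S3 and 1.77% of non-erythroid cells. For Xpo7 the shares were 45.1%, 25.8% and 1.77%, and for Slfn14 they were 27.5%, 18.6% and 0.707%. In S5-like cells these shares were lower than in S4-like cells, at 57.1% for Tmcc2, 37.7% for Xpo7 and 17.7% for Slfn14, although the levels of Tmcc2 and Xpo7 were higher there. Without thinning, the shares in S4-like and S3 cells were 78.1% and 77.5% for Tmcc2, 55.7% and 37.0% for Xpo7 and 40.4% and 30.7% for Slfn14. The median depths were 3949 UMIs in S4-like, 4582 in S3 and 7817 in non-erythroid cells.

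Of Tmcc2, Xpo7 and Slfn14, the sequence before the start is shown for Slfn14 and Tmcc2. In RefSeq's GRCm38.p6 windows, the 250 bases before the first base were searched on both strands for GATAA, the core recognised by GATA factors, which in reverse reads TTATC. The motif was in 22.6% of all 32851 windows and in 1 or more windows of 25.5% of the 27025 genes. The single Slfn14 window (chr11:83286727-83286976, minus strand) held 1 match, starting 73 bases before the start. Of 3 Tmcc2 windows only that of the innermost start (chr1:132367949-132368198, minus strand) held a match, 33 bases before the start. A second search for CCNCNCCC, the core of KLF factor sites, on both strands found 2 matches in the Slfn14 window, 1 in this Tmcc2 window and 4 and 0 in the other Tmcc2 windows, and 45.9% of all windows hold it. The windows with a GATAA match are printed 5′ to 3′ on the gene's strand with the GATAA match, here TTATC, in capitals:
Slfn14: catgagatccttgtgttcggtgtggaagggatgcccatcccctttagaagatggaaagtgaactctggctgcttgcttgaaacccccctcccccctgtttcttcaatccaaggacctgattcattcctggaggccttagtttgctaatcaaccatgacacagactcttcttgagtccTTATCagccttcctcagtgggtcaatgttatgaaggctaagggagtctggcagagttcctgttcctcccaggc
Tmcc2: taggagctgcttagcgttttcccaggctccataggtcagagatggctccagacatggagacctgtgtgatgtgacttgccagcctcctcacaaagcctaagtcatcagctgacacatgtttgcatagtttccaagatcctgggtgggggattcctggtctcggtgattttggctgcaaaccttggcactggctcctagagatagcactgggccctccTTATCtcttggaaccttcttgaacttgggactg

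A small set of S4-like cells did not look like late erythroblasts. The stem cell factor receptor cKit marks progenitors, and its antibody count, which the selection did not use, had a median of 14 in S4-like cells and a 95th percentile of 33, but 18 cells (3.34%, 1.99 to 5.23%) had counts of 50 or more, up to 1007. These 18 cells held a median of 9329 UMIs and of 7.62% globin, where the other 521 S4-like cells held 3915 UMIs and 63.0% globin. Of the 13 Kit UMIs in all S4-like cells, 7 came from them. Their levels of Tmcc2 (389), Xpo7 (159) and Slfn14 (35.4) were below those of S4-like cells with lower cKit counts (5249, 1360 and 446). Their median CD44 count was 189.5 against 45 in the others. By number they were few, but because of their size they supplied 17.2% of the non-globin UMIs of S4-like cells. Such cells formed 8.11% of S3 cells with 27.2% of the non-globin UMIs and 0.968% of S5-like cells with 8.06%. They go against the label of late erythroblasts. Scrublet, which scores cells for resemblance to a mix of 2 cells, called 5 of these 18 cells doublets and 1 of the other 521, and the part of doublets in the remaining cells of high cKit was not tested. The same call was made for 24 of the 71 such cells in S3, 13 of 271 in S2-like, 0 of 3 in S5-like and 4 of 93 in non-erythroid cells. The limit of 50 was chosen after the data were seen, and some values without such cells in every population are given below.

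**Figure D2:**
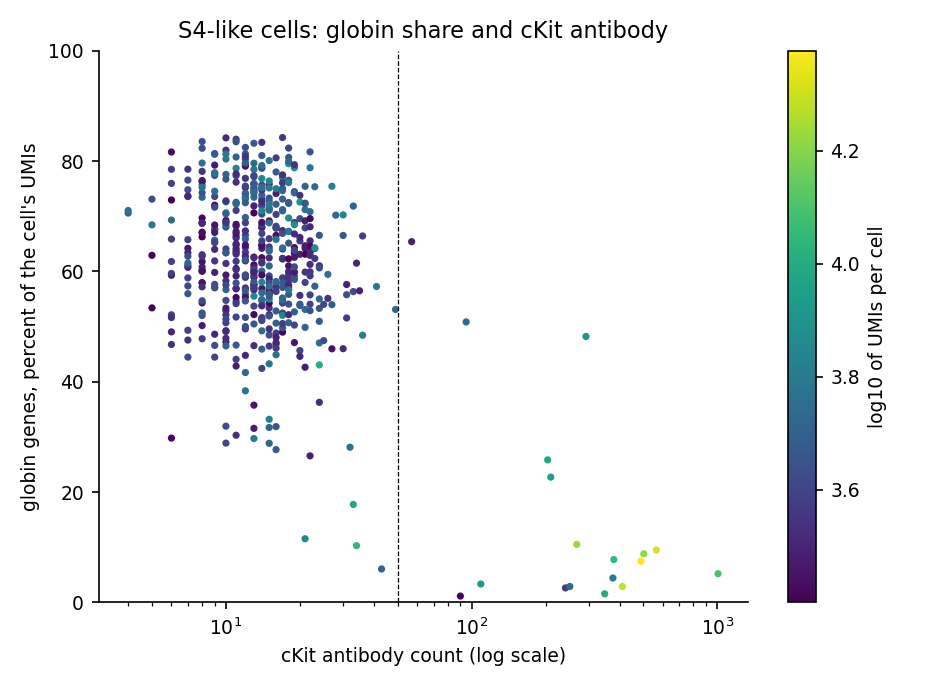
Each point is one of the 539 S4-like cells, with the cKit antibody count on the x axis (log scale), globin genes as a percent of the UMIs of the cell on the y axis, and the log10 of its UMIs as colour. Right of the dashed line, at a cKit count of 50, lie 18 cells with a median of 7.62% globin.

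The globin share varied widely also among the remaining 521 cells, from 6.07% to 84.3%. Over all 539 S4-like cells the quartiles were 54.4, 62.5 and 71.9%. Only 17 cells (3.15%) lay below 20%, against 15.6% of S3 and 0.968% of S5-like cells, and 13 of these 17 were in the cKit-high set. The S4-like and S5-like cells overlapped, with 70.9% of S4-like and 39.4% of S5-like cells below 70% globin.

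The 20 genes with the most UMIs after globin and mitochondrial genes included several of iron storage, antioxidant defence and heme synthesis. Ferritin light chain Ftl1 stood at 23569 and heavy chain Fth1 at 17556, the antioxidant enzymes Gpx1 and Prdx2 at 21113 and 11420, and carbonic anhydrase Car2 at 14336. Alas2, the first enzyme of erythroid heme synthesis, stood at 5330 and ferrochelatase Fech, the last, at 5282. Among them were also Ubb, a polyubiquitin gene, at 7147, and Tmcc2. The nuclear RNA Malat1 stood at 11603, and UMI counts of different genes are not corrected for length.

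Comparing S4-like with S3 cells asks what distinguishes the cells once surface CD71 is lower. Ter119 differed as well, with a median count of 124 in S3, 153 in S4-like and 163 in S5-like cells. With Ter119 of at least 150 in both populations the 3 markers were 2.27-fold higher in S4-like than in S3 cells, in place of 3.25-fold. The part of Ter119 in the other differences was not tested. Of 5666 genes with at least 50 UMIs over both populations, 292 (5.15%) were at least 1.5-fold higher in S4-like cells and 507 (8.95%) at least 1.5-fold lower, on the scale of log2 of the level plus 10. The median gene was at -0.15, so differences are read against that shift. Without the cKit-high cells, 262 of the 292 and 452 of the 507 were still past the fold, and in all 325 genes were higher and 663 lower. Because S4-like cells held fewer non-globin UMIs, only 148 of the 292 were also higher as UMIs per cell, where the median log2 ratio of all genes was -1.19, whereas all 507 were lower on that scale as well.

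Bpgm, the red cell enzyme that makes 2,3-bisphosphoglycerate, had the largest ratio. Its level was 110 in S2-like, 551 in S3, 2432 in S4-like and 4701 in S5-like cells, 4.41-fold higher in S4-like than in S3 cells (4.15 to 4.69) and 2.21-fold higher per cell. In thinned cells 74.2% of S4-like cells held a Bpgm UMI against 40.2% of S3 and 5.65% of non-erythroid cells. Xpo7 (3.74-fold), Tcp11l2 (3.62-fold), Fam220a (3.27-fold), Mkrn1 (3.26-fold), Tmcc2 (3.19-fold) and Bcl2l1 (3.17-fold) followed, each with at least 890 UMIs in S4-like cells and each also higher per cell. Mkrn1 codes for a RING-finger ubiquitin ligase and Bcl2l1 for the survival factor Bcl-xL. Lgmn (4.34-fold, 3.29 to 5.75), a lysosomal protease, Ncf4 (3.69-fold), Ube2h (3.35-fold), a ubiquitin-conjugating enzyme, the cyclin gene Ccng2 (3.35-fold) and Pepd (3.22-fold) complete the 12 largest ratios, on 123 to 259 UMIs each.

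**Figure D3:**
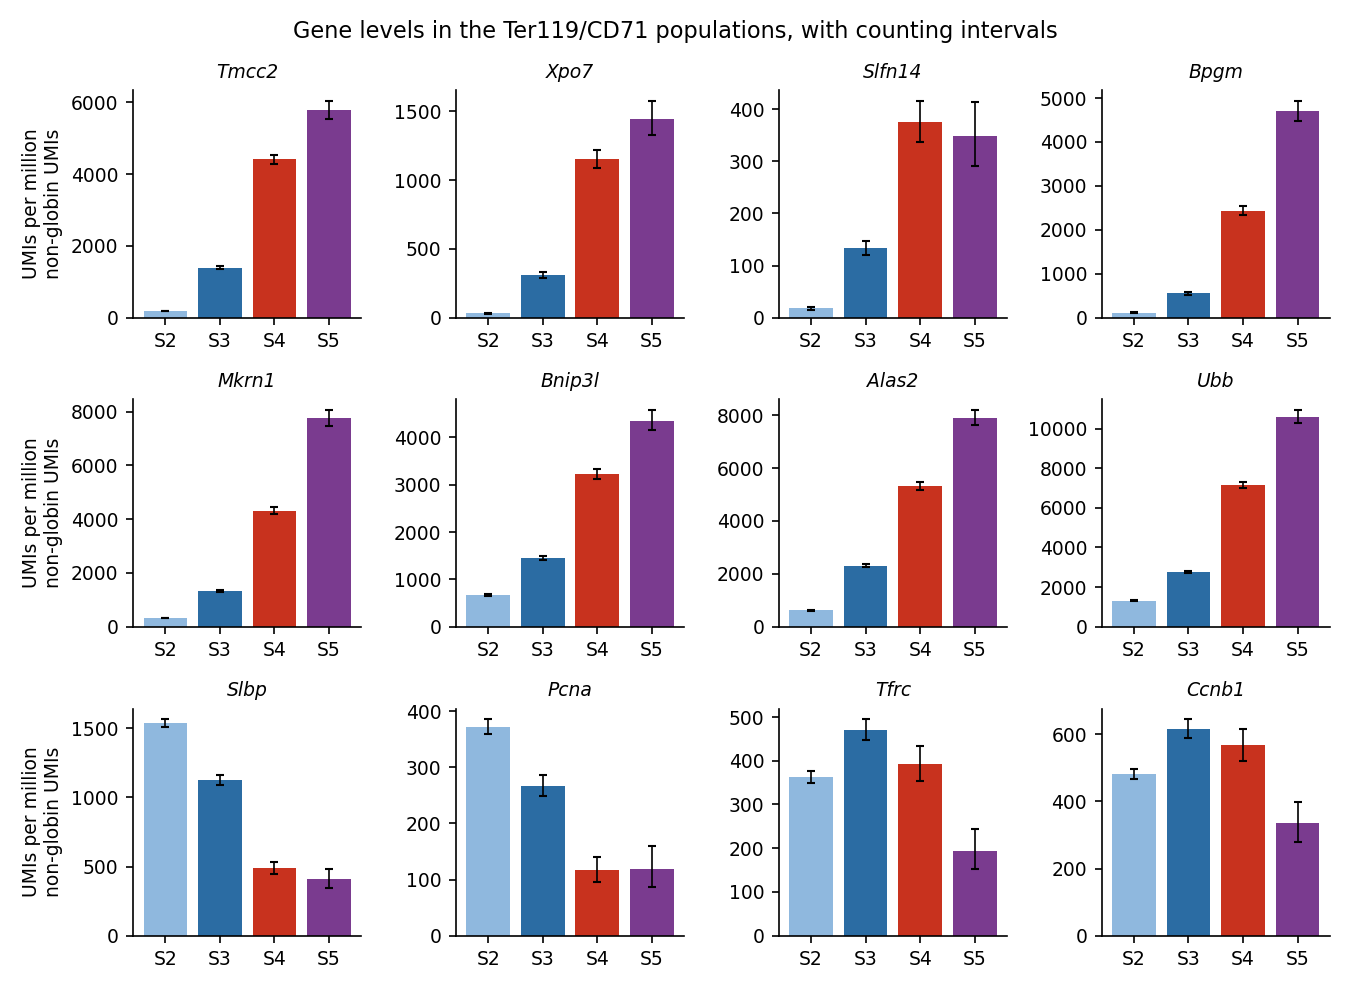
Bars give levels (pooled UMIs per 1000000 non-globin UMIs) of 12 genes in S2-like, S3, S4-like and S5-like cells, and error bars are 95% Poisson intervals on the counts, with a separate linear y axis for each gene. On this scale Tmcc2, Xpo7 and Bpgm are higher in each later population (per cell Tmcc2 and Xpo7 are lower in S5-like than in S4-like cells), Slbp and Pcna are at their lower level already in S4-like cells, and Tfrc and Ccnb1 are near the S3 level in S4-like cells and lower in S5-like cells.

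Several ubiquitin enzymes were higher in S4-like cells while proteasome genes were not. Of 19 genes tested from a list of ubiquitin enzymes and ligases of late erythroblasts, 9 were past the fold upwards and 0 downwards. Of all genes 5.15% were past it upwards, and the list's median log2 ratio was 0.51 beside -0.15 over all genes. The gene lists here and below were chosen with earlier results of these data known. Their counts beside the share of all genes are therefore a description only. Ubb was 2.59-fold, Ube2o, the enzyme that marks ribosomal proteins for degradation in reticulocytes, 2.69-fold and Fbxo30 2.65-fold higher. Per cell these were 1.29-fold, 1.34-fold and 1.33-fold higher, and 5 of the 9 were higher on that scale. The 35 proteasome genes tested gave 0 higher and 1 lower, and without the cKit-high cells 1 higher and 4 lower. From the autophagy and mitophagy list 6 of 17 genes were past the fold upwards and 0 downwards, and 4 of the 6 were higher per cell. Bnip3l (Nix), the receptor that mitochondria need for removal from reticulocytes, was 2.24-fold higher (1.12-fold per cell), Gabarapl2 2.18-fold (1.09-fold per cell), the cargo receptor Sqstm1 2.93-fold and Pink1 2.55-fold. Map1lc3b, the autophagosome protein LC3B, was 1.99-fold higher on the non-globin scale and 0.996-fold per cell.

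RNA decay and translation control gave 8 of 17 genes past the fold upwards and 0 downwards, against 5.15% and 8.95% of all genes, with a list median of 0.57 beside -0.15. Of the 8, 5 were higher per cell. Fam46c, a poly(A) polymerase, was 2.90-fold, Dcaf12 2.69-fold and the poly(A)-binding protein gene Pabpc1 2.44-fold higher, and per cell they were 1.45-fold, 1.35-fold and 1.22-fold higher. Rbm38, an RNA-binding protein of erythroid splicing, was 1.70-fold higher but 0.850-fold per cell. Without the cKit-high cells 6 of these 17 genes were past the fold. A list of other late erythroid genes gave 9 of 21 upwards and 1 downwards, beside the same shares of all genes, with 4 of the 9 higher per cell. Among the 9 was Tspo2, which was 1.61-fold higher but 0.805-fold per cell.

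Among membrane and skeleton genes 5 of 27 were past the fold upwards and 0 downwards, against 5.15% and 8.95% of all genes, and 3 of the 5 were higher per cell. The glucose transporter Slc2a1 was 2.40-fold, Mpp1 2.19-fold and protein 4.1 (Epb41) 2.17-fold higher, and per cell these were 1.20-fold, 1.09-fold and 1.09-fold higher. Of 18 antioxidant genes 3 were past the fold upwards and 1 downwards. Catalase (Cat) was 2.73-fold higher, and Gpx1 was 1.86-fold higher but 0.930-fold per cell. Of 26 erythroid transcription factors tested, 3 were past the fold in each direction, from which nothing is read beside those shares of all genes, with Foxo3 at 1.86-fold (0.930-fold per cell) and Zbtb7a, a repressor of fetal globin, at 0.446-fold.

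Of the 8 enzymes of heme synthesis 2 were past the fold upwards and 1 downwards, counts too small to read against the 5.15% and 8.95% of all genes. Alas2 was 2.30-fold higher and Fech 1.62-fold higher in S4-like cells, the latter 0.811-fold per cell, while Uros, which closes the porphyrin ring, was 0.612-fold. The remaining enzymes stayed within the fold, with Alad at 0.858-fold and Cpox at 0.708-fold. Among carriers, Tmem14c, a mitochondrial protein needed for porphyrin import, was 0.408-fold (0.378 to 0.439) with 6248 UMIs in S3 and 785 in S4-like cells, and Slc25a38, the glycine carrier, was 0.647-fold. The iron carrier Slc25a37 (mitoferrin-1) was 1.24-fold higher by level and 0.620-fold per cell.

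Among genes lower in S4-like cells, those of DNA replication are given first. Of 31 S phase genes 18 were past the fold downwards and 0 upwards, where 8.95% of all genes were past it downwards, and the list median was -0.63. The summed level of the list was 9660 in S2-like, 7588 in S3, 4637 in S4-like and 4036 in S5-like cells. Pcna, the sliding clamp of DNA polymerase, was 0.436-fold, Mcm2 of the replicative helicase 0.488-fold, and Slbp, the histone mRNA binding protein, 0.433-fold (0.393 to 0.476). Ccnd3, cyclin D3, was 0.430-fold and Cdk2 0.390-fold. Without the cKit-high cells 20 of the 31 were past the fold downwards. The 37 genes of G2 and mitosis had a list median of -0.33, with 1 gene (Top2a, 0.633-fold) past the fold downwards and 2 upwards, one of them Nusap1 at 1.61-fold (0.805-fold per cell), and without the cKit-high cells 3 were past it downwards and 1 upwards. Ccnb1, cyclin B1, was 0.9204-fold (0.837 to 1.01) and Cenpf 0.945-fold. Per cell, both lists were lower, with 8.49 S phase UMIs in S4-like against 27.7 in S3 cells, and 27.2 against 57.7 for G2 and mitosis.

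The mitotic UMIs, and those of S phase genes, were less evenly spread over S4-like cells than over S3 cells. The list of G2 and mitosis made up a median of 0.789% of a cell's non-globin UMIs in S4-like cells, with a 95th percentile of 4.63%, against 1.26% and 4.04% in S3. The 53 S4-like cells with the highest share contributed 36.2% of the list's UMIs, against 17.8% from the 87 highest of S3 and 35.6% from the 31 highest of S5-like cells, the same fraction of each population. The median count behind these shares was 10 UMIs of the list per cell in S4-like, 48 in S3 and 9 in S5-like cells. For the S phase list the same fraction of cells contributed 34.0% in S4-like, 20.6% in S3 and 18.7% in S5-like cells. All of these shares include the cKit-high cells. In thinned cells 24.1% of S4-like cells held a Ccnb1 UMI against 44.2% of S3, and 25.05% held a Mki67 UMI against 49.3%. In non-erythroid cells these shares were 23.7% and 20.8%.

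Ribosomal protein genes were 20 of 78 lower and 0 higher, against 8.95% of all genes lower, with a list median of -0.46. Their summed level was 151794 in S3 and 106900 in S4-like cells, and Rplp0 was 0.648-fold (0.628 to 0.669). Without the cKit-high cells 31 of the 78 were past the fold downwards. By contrast, 0 of 74 nuclear genes of oxidative phosphorylation were past the fold in either direction, with a list median of -0.13 beside -0.15 over all genes. Without the cKit-high cells 3 of the 74 were past it downwards, and the counts with free RNA subtracted are given below. The 12 lowest ratios, named by rule, were those of Mtif2 (0.203-fold), Fam45a (0.222-fold), Zfp367 (0.288-fold), Wdr76 (0.297-fold), Cdc42ep3 (0.373-fold), 2810417H13Rik (0.383-fold) and Slc39a8 (0.402-fold), beside Cdk2, Tmem14c, Ccnd3, Slbp and Pcna above. Mtif2 and Fam45a rest on 6 and 5 UMIs in S4-like cells, with intervals of 0.0727 to 0.458 and 0.0701 to 0.543.

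**Figure D4:**
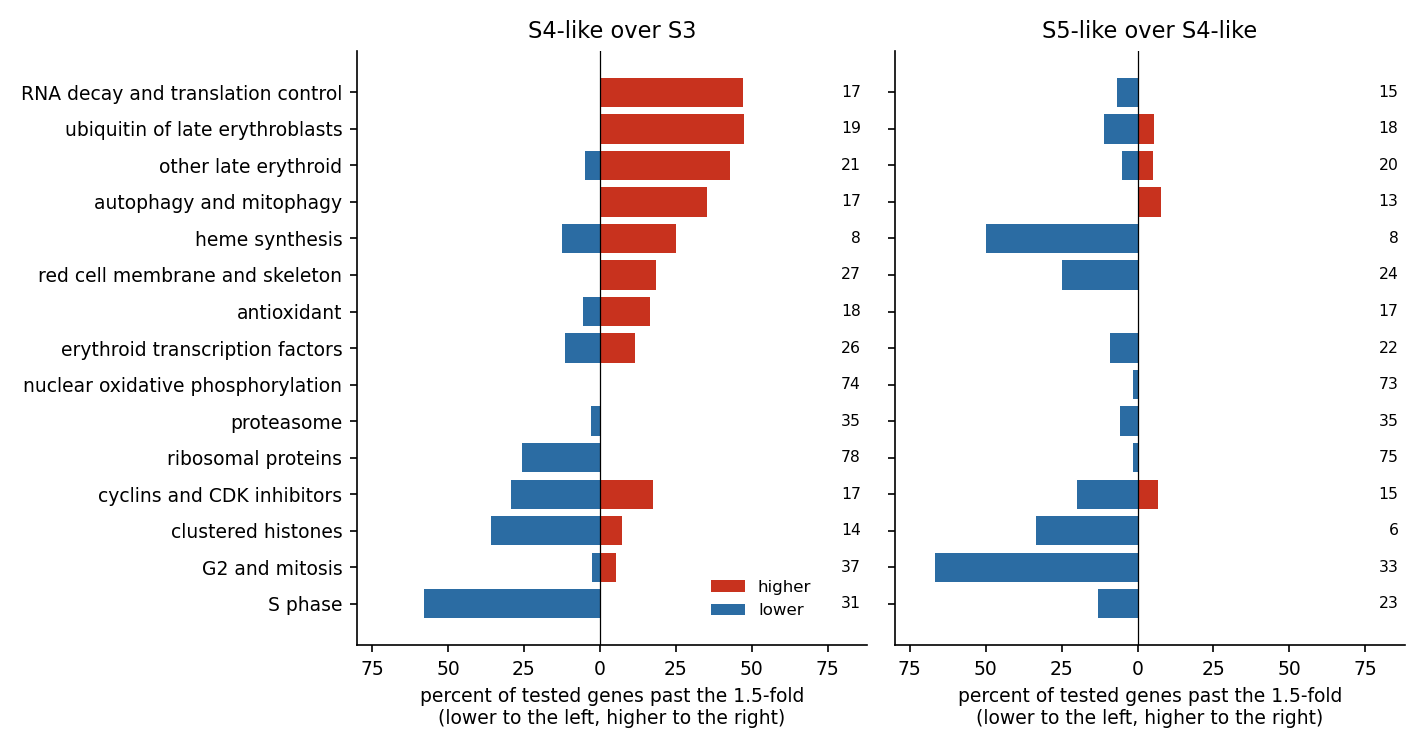
For 15 gene lists, bars give the percent of tested genes that were at least 1.5-fold higher (red, to the right) or lower (blue, to the left), in S4-like over S3 cells on the left and S5-like over S4-like cells on the right, with the number of genes tested printed at the right edge. At the first step S phase genes are lower (18 of 31, against 8.95% of all genes) and G2 and mitosis genes mostly are within the fold. At the second step G2 and mitosis genes are lower (22 of 33, against 10.3% of all genes) and S phase genes mostly within the fold (3 of 23 lower). With free RNA subtracted 16 of 23 S phase genes are lower at the second step, beside 1297 of all 3018 genes. The lists were chosen with earlier results of these data known.

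The step from S4-like to S5-like cells, where CD71 is lost further, shares the S4-like cells with the comparison above, so the values are set side by side only. Of 3018 genes, 81 (2.68%) were at least 1.5-fold higher in S5-like cells and 311 (10.3%) at least 1.5-fold lower, with a median log2 ratio of -0.09. The counting interval lay off 1 for 72 of the 81 and 238 of the 311. Genes of G2 and mitosis were now 22 of 33 lower and 0 higher, with a list median of -0.74, while S phase genes were 3 of 23 lower, with a median of -0.22. The contrast between the lists depended on the scaling. With free RNA subtracted (estimated below) 27 of 33 and 16 of 23 were lower, with medians of -1.23 and -1.07. Of all 3018 genes 1297 were lower at that setting, with a median of -0.42. Mki67 was 0.463-fold, Cenpf 0.379-fold and Ccnb1 0.590-fold. Prc1 (0.262-fold), Hist1h1b (0.169-fold), Trp53bp1 (0.222-fold), Sp3 (0.304-fold) and Vrk2 (0.315-fold) were, with Cenpf, the 6 lowest, on 4 to 50 UMIs in S5-like cells.

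Of the heme enzymes, 4 of 8 were lower in S5-like than in S4-like cells, where 10.3% of all genes were lower, namely Ppox (0.622-fold), Alad (0.629-fold), Cpox (0.486-fold) and Uros (0.621-fold, but 1.19-fold with Ter119 of at least 150), while Alas2 was 1.48-fold higher (0.982-fold per cell). Of 24 membrane genes 6 were lower, beside the same 10.3%. Among them Gypc was 0.529-fold, beta-spectrin (Sptb) 0.410-fold and Icam4, an adhesion molecule towards macrophages, 0.497-fold. The 8 heme enzymes are too few to read, and both lists depended on the scaling. Their medians were -0.43 (heme) and -0.29 (membrane) beside -0.09 over all genes. With free RNA subtracted (estimated below) they were -0.30 and -0.08 beside -0.42. As sums the lists were 1.07-fold and 1.03-fold higher by level, and 0.712-fold and 0.684-fold per cell. Hemgn, an erythroid nuclear protein, was 0.477-fold. Bpgm was a further 1.93-fold higher (1.82 to 2.06), Mkrn1 1.80-fold, Fam220a 1.74-fold and Gabarapl2 1.56-fold, and these were also higher per cell, by 1.28-fold, 1.19-fold, 1.15-fold and 1.03-fold. The 6 largest ratios were those of other genes. Sepp1 (2.57-fold), H2afy (2.36-fold), Tm9sf3 (2.24-fold), Mpo (2.24-fold), Arhgdib (2.23-fold) and Rac2 (2.13-fold) had 41 to 63 UMIs in S5-like cells, and each was higher in the non-erythroid cells than in S4-like cells, with Sepp1 at 880 against 45.6 and Mpo, a neutrophil granule enzyme, at 546 against 68.9. Mpo is on the myeloid list that helped to choose the non-erythroid cells, so its level there is a description. At this step 6 of 10 hepatocyte and 5 of 7 myeloid genes tested were higher, against 2.68% of all genes. The summed lists were 1.58-fold (hepatocyte), 1.86-fold (myeloid) and 1.83-fold (megakaryocyte) higher, and per cell 1.05-fold, 1.23-fold and 1.21-fold. The part of other cells or free RNA in this step was not tested.

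The transcript of CD71 is set beside its antibody count as a description. The selection sets the CD71 antibody count, whose median was 1399.5 in S3, 420 in S4-like and 99 in S5-like cells. Its transcript Tfrc stood at 363 in S2-like, 470 in S3, 392 in S4-like (0.834-fold of S3, 0.744 to 0.933) and 194 in S5-like cells (0.495-fold of S4-like). Per cell the values were 1.72 Tfrc UMIs in S3, 0.718 in S4-like and 0.235 in S5-like cells. In thinned cells 25.8% of S4-like cells held a Tfrc UMI, against 41.8% of S3, 8.06% of S5-like and 6.71% of non-erythroid cells.

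CD44, an adhesion receptor whose loss is also used to stage erythroblasts, was not part of the selection. Its antibody count had a median of 122 in S2-like, 80 in S3, 47 in S4-like (quartiles 34 and 66) and 34.5 in S5-like cells (quartiles 24 and 47), and the ranges of single cells overlapped, as the S3 quartiles were 54 and 116. The order was the opposite when CD44 was taken as a share of all antibody counts of a cell, at 4.52% in S3, 6.89% in S4-like and 9.86% in S5-like cells, where the median of all antibody counts was 1712, 692 and 358. The selection limits CD71, which is part of that denominator (medians of 1399.5, 420 and 99), so the order of the shares was in part set by it. The Cd44 transcript was too sparse to compare, with 14 UMIs in all S4-like cells. The cKit count had medians of 23, 17, 14 and 13 from S2-like to S5-like cells, and the control IgG had a median of 0.

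Within S4-like cells the order along CD71 was then examined, with the cells cut into 4 groups of 134 or 135 by CD71 count. With all cells included, none of the markers was lower or higher at each step. Tmcc2 stood at 4371, 4618, 3907 and 4799 from the lowest to the highest CD71 group, and the lowest group was 0.911-fold of the highest (0.837 to 0.991). Xpo7 (1.14-fold, 0.968 to 1.34) and Slfn14 (1.03-fold, 0.776 to 1.38) had intervals that included no difference. Tfrc itself stood at 355, 421, 373 and 421. Bpgm was higher at low CD71, at 2875, 2673, 1999 and 2247 (1.28-fold, 1.14 to 1.43), and so was Mkrn1 (1.33-fold, 1.22 to 1.45). The progenitor list was 1.58-fold (1.41 to 1.78) and, of the lists of other cells, the myeloid list 1.504-fold (1.17 to 1.93) higher there. In S4-like cells 1 gene, Npm1, gave 1793 of the 2577 UMIs of the progenitor list. The 2 highest cells gave 211 and 158 of them. The hepatocyte (1.11-fold, 0.974 to 1.26), macrophage (0.990-fold, 0.862 to 1.14), megakaryocyte (1.10-fold, 0.725 to 1.67) and endothelial lists (1.76-fold, 0.819 to 3.95) had intervals that included no difference. The primitive erythroid list, which holds Hbb-y, was 0.626-fold (0.593 to 0.661). However, 1 cell held 2348 of its 8258 UMIs in S4-like cells. The groups held 2076, 1377, 1306 and 3499 UMIs of the list, so that cell was in the group of highest CD71. The ratio without that cell was not computed, and no direction is read from this list. The part of these lists in the order was not tested. Genes of G2 and mitosis went the other way, at 13051, 14916, 14636 and 16672 (0.783-fold, 0.747 to 0.820). The globin share was 60.1, 61.7, 56.3 and 55.6%, and the median CD44 count 42, 47, 50 and 47.5.

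The cKit-high cells were spread over these groups as 6, 4, 6 and 2 cells. With the remaining cells cut into 4 groups again, the globin shares were 66.1, 64.6, 62.2 and 57.2% from the lowest to the highest CD71 group, and Bpgm stood at 3701, 2966, 2543 and 2394, both lower at each step. Tmcc2 stood at 5642, 5399, 4803 and 5204, Xpo7 at 1672, 1162, 1418 and 1234, and Slfn14 at 532, 404, 429 and 429, each highest in the group of lowest CD71, where Tmcc2 had been lower than in the highest group with all cells. Tfrc stood at 389, 513, 434 and 425, and G2 and mitosis genes at 15083, 16117, 16416 and 17664. All S3 cells without cKit-high cells had 41.2% globin and Tmcc2 at 1821.

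**Figure D5:**
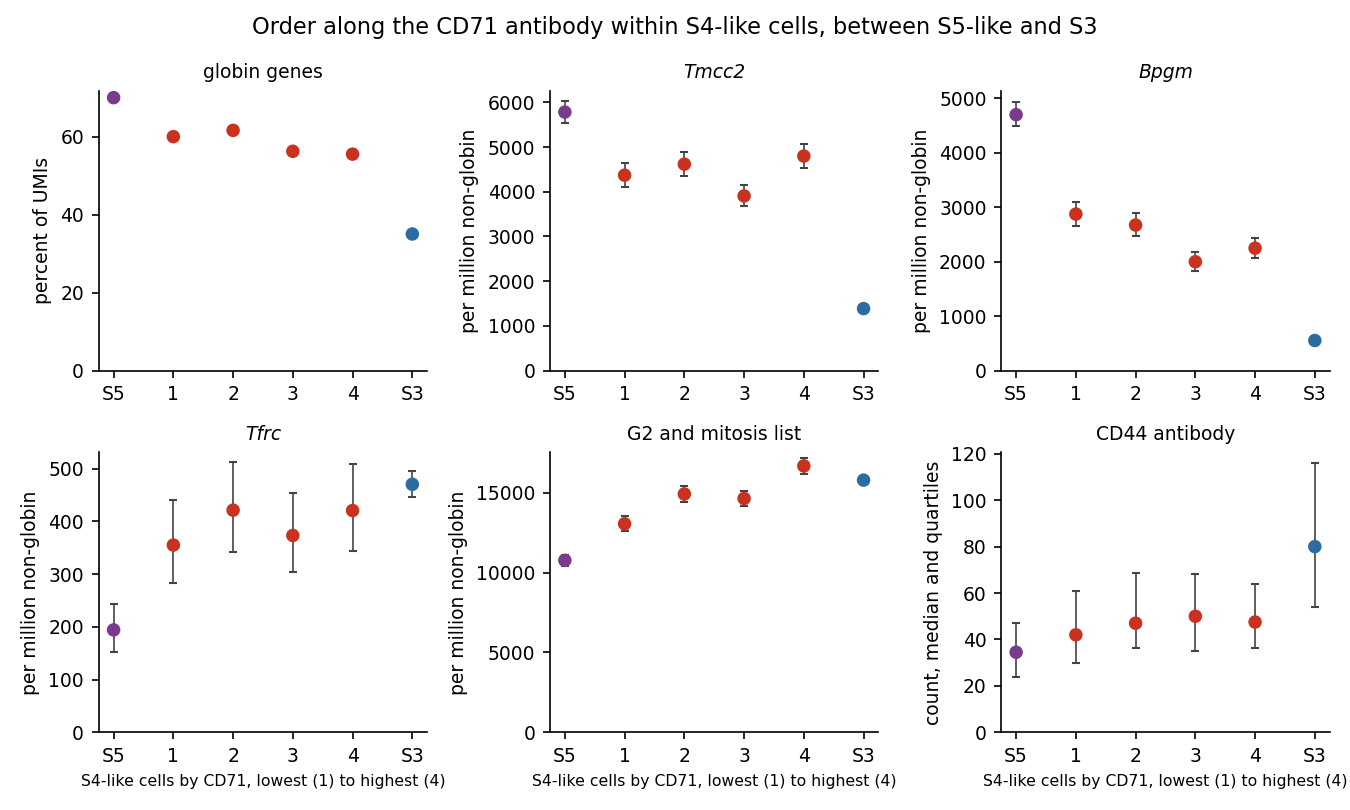
S4-like cells in 4 groups by CD71 antibody count (1 lowest, 4 highest, red) between all S5-like cells (purple) and all S3 cells (blue). Panels show the percent of globin UMIs, levels of Tmcc2, Bpgm, Tfrc and the G2 and mitosis list per 1000000 non-globin UMIs (all with 95% counting intervals), and the median CD44 antibody count with quartiles. Tmcc2 is lowest in group 3 (3907) and highest in group 4 (4799), but highest in group 1 without cKit-high cells, Bpgm is highest in group 1, and the G2 and mitosis list is highest in group 4.

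Markers of other cells were counted in S4-like cells as whole lists. The 15 hepatocyte genes summed to 3.84 UMIs per S4-like cell (716 in non-erythroid cells), with Afp as the most abundant and at most 13 in any cell. In S2-like and S5-like cells the sums were 3.93 and 4.02. The S3 sum was 7.21, with 2041 UMIs from 1 cell and 1337 from another. None of the 15 genes was past the fold in S4-like over S3 cells (0 of 15). Without the cKit-high cells 14 of 15 were past it upwards, where 325 of all genes were, with a list median of 0.98 in place of 0.08. The cause of this change was not tested. With free RNA subtracted 0 of the 15 were higher and 10 lower, with a list median of -1.29, but the subtracted amount was estimated in part from this list (below). The 11 myeloid genes summed to 0.771, 0.817, 0.976 and 1.20 UMIs per cell from S2-like to S5-like cells, with S100a8 as the most abundant in S4-like cells and 42 of 526 UMIs in 1 cell. All 7 myeloid genes tested were past the fold upwards in S4-like over S3 cells, against 5.15% of all genes. With free RNA subtracted 5 of the 7 were, where 422 of all genes were. The subtracted amount was estimated in part from the myeloid list, so nothing is read from the 5 of 7. Per cell the list was 1.19-fold higher. The 10 megakaryocyte genes summed to 0.349 UMIs per S4-like cell, led by Pf4, the 12 macrophage genes to 2.93, of which Ctsb gave 1529 of 1578 UMIs, and the 6 endothelial genes to 0.128. Of 9 lymphoid genes 7 were at 0 in S4-like cells, among 7 UMIs in all, and of 5 mast cell and basophil genes 4 were at 0. Cd3e had 0 UMIs, which by a one-sided 95% limit allows up to 3, and Itgam and Ptprc had 1 and 4.

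Free RNA in the droplets was estimated from these lists. In S4-like cells the hepatocyte, myeloid and megakaryocyte genes together were at 8.05% of their mean over all cells. The same part of the mean cell would be 532 non-globin UMIs, or 29.1% of the non-globin UMIs of an S4-like cell, 14.6% of an S3 cell and 43.9% of an S5-like cell. Non-erythroid cells held 80.1 globin UMIs, which is 9.54% of the mean cell. With that amount subtracted from every population, a setting chosen after the data were seen, the markers were 3.95-fold higher in S4-like than in S3 cells, and 279 of the 292 higher and 503 of the 507 lower genes were still past the fold. The counts of lower genes were then larger. Of all 5666 genes 1802 were lower in S4-like than in S3 cells, with a median log2 ratio of -0.34. At this step 29 of 31 S phase, 64 of 78 ribosomal protein, 11 of 74 oxidative phosphorylation (1 higher) and 9 of 35 proteasome genes were lower. Of all 3018 genes 1297 were lower in S5-like than in S4-like cells, with a median of -0.42. There 56 of 75 ribosomal protein genes were lower, where 1 of 75 had been without the subtraction. The part of free RNA in any single gene was not tested.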

How the data were processed

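Per the labels and the methods, the authors mapped cDNA reads to mm10 with Cell Ranger, assigned antibody reads to cell barcodes and used Seurat and Scrublet, and they deposited UMI counts per gene and cell (27998 genes) and antibody counts per cell. Whether antibody counts were collapsed by UMI is not given in the sources used here. The members, gene lists and limits were chosen with earlier results of these data known. From the counts, populations were set by the limits above, UMIs were pooled per population and divided by non-globin UMIs, and genes with at least 50 UMIs over both populations were compared as log2 of the level plus 10 with a fold of 1.5. Intervals are exact at 95% (Poisson, Clopper-Pearson, or conditional binomial for ratios) and cover counting error only. S4-like cells gave 2374398 UMIs, of which 986328 were non-globin.

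Genes named are the 3 markers, globins, the 20 highest levels, the 12 highest and 12 lowest ratios over S3 and 6 of each for S5-like cells, members of fixed lists past the fold or high, and antibody targets. Shares of cells with a UMI used cells thinned to 2000 UMIs (seed 7, no cell lost). Doublets were kept in the main values and removed with Scrublet (scanpy 1.11.5, expected rate 6%) as an alternative. Python 3.11.15, numpy 2.4.6, scipy 1.17.1 and pandas 2.3.3 were used. The comparison was tested on simulated pooled counts with planted changes. That simulation held no differences between cells and no free RNA, so it covers counting error only. Some genes named by these rules are not reported here.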

Additional observations from a re-analysis of the deposited data

How the results depend on the processing

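The direction of the marker difference was kept under every alternative tried. The 3 markers were 2.27-fold higher in S4-like than in S3 cells with Ter119 of at least 150, 3.05-fold with lineage counts of at most 50, 3.01-fold with at most 5% mitochondrial UMIs, 2.08-fold as CPM (scaled to all UMIs, globin included), 1.63-fold as UMIs per cell, 2.12-fold as a mean over cells, 2.95-fold without cells of cKit count 50 or more and 3.95-fold with free RNA subtracted, the last 2 chosen after the data were seen. The globin share was 58.2% with CD71 from 250 to 650, 62.3% with Ter119 of at least 150, 59.8% with the lineage limit, 59.0% with the mitochondrial limit, 59.5% without the 6 S4-like cells called doublets, 58.4% with a stricter limit on Hbb-y, 58.1% for adult genes alone and 62.6% without cKit-high cells. The median depth was 4334 UMIs with Ter119 of at least 150, and CD44 was 6.89% as a share of antibody counts.

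Counts of genes depended most on the denominator, since S4-like cells hold more globin and less RNA. As CPM, 50 genes were higher and 2554 lower in S4-like than in S3 cells and 2 higher and 944 lower in S5-like than in S4-like cells, and as UMIs per cell these were 16, 4341, 1 and 1638. As a mean over cells 134 genes were higher in S5-like cells. With free RNA subtracted 1802 were lower in S4-like cells, and 216 higher and 1297 lower in S5-like cells. A pseudocount of 1 gave 882 lower in S4-like cells, and one of 50 gave 153 higher and 86 lower there and 20 higher and 94 lower in S5-like cells. With at least 20 UMIs 226 were higher and 615 lower in S5-like cells, with at least 200 these were 17 and 64 and 244 were lower in S4-like cells, and without a filter 628 were higher and 1040 lower in S5-like cells.

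Genes past the fold upwards in S4-like over S3 but below 1 as UMIs per cell included Map1lc3b (0.996), Fech (0.811), Gpx1 (0.930), Foxo3 (0.930), Rbm38 (0.850), Nusap1 (0.805), Cdkn1b (0.993) and Tspo2 (0.805). Uros in S5-like over S4-like cells was at 1.19 with Ter119 of at least 150. No leave-one-out and no paired analysis was possible because each library is single. The S5-like comparison rests on 310 cells.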
